A study of Homo sapiens with 12 samples.

Results

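The 9 genes described here encode enzymes that make, use or interconvert glutamine (Gln), glutamate (Glu), aspartate (Asp), asparagine (Asn), alanine and proline. They were chosen by their known function, with earlier results of these data known, and are 9 of the 44659 genes counted. In order of role they are GLS2 (Gln breakdown), GLUL (Gln synthesis), GLUD1 (Glu oxidation), GOT1, GOT2 and GPT2 (aminotransferases), ASNS (Asn synthesis), and ALDH18A1 and PYCR1 (proline synthesis).

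Gln is the most abundant amino acid in plasma and in most culture media, and gives its amide nitrogen to nucleotides, amino sugars and Asn. Glutaminases turn it into Glu. Glutamate dehydrogenase and the aminotransferases then pass the carbon of Glu to the citric acid cycle as 2-oxoglutarate, while its amino group goes to Asp, alanine or serine. Asp is drawn on for pyrimidines, purines and Asn, and Glu is also the start of proline. Cells short of an amino acid activate the kinase GCN2 and the transcription factor ATF4, which is known to bind the promoters of genes for amino acid synthesis and transport.

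RNA-seq was performed on A375, a human BRAF-mutant skin melanoma cell line, in 2 separate experiments with 3 libraries per group, 12 libraries in all. In the MAPKi experiment, cells received the BRAF inhibitor vemurafenib (500 nM) with the MEK inhibitor cobimetinib (500 nM), hereinafter MAPKi, or the solvent DMSO, for 24 h. In the Gln depletion experiment, cells were kept for 24 h in Gln-free medium (Gln-depleted, or -Gln) or in medium with 2 mM Gln (CTRL). All 4 groups shared the same parental line, and the labels describe a culture medium with 10% fetal bovine serum and RNA from a cytoplasmic lysate. The MAPKi and DMSO libraries were sequenced in another batch than the CTRL and Gln-depleted ones, so levels were compared only within an experiment. Within the Gln depletion experiment, replicate 1 of each group came from experimental batch 1 and replicates 2 and 3 from batch 2. Beyond these batches, nothing says whether the replicates were separate cultures, so p-values measure only the spread between these samples.

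Between 31056296 and 40071368 reads were counted per library. Of the list of MAPK target genes, 9 of 9 tested fell under MAPKi, led by DUSP6 (log2 fold change -9.53), SPRY4 (-7.46) and ETV5 (-6.43). After Gln depletion 5 of 10 tested rose, led by EGR1 (2.26), FOSL1 (2.24) and CCND1 (1.95), and 9 of 10 with the replicate number as a block. Over all genes tested, 38.9% fell under MAPKi and 9.74% rose after Gln depletion, or 25.6% with the block. The libraries expressed the melanocyte and melanoma markers, 9 of 9 of which averaged 10 or more normalized reads in the MAPKi experiment. Their summed normalized count was 310489 to 397478 under MAPKi against 53775 to 56747 under DMSO, and 27415 to 30258 in the Gln-depleted against 41030 to 50133 in the CTRL libraries. The 3 neural crest-like markers were all expressed, and their sum was 6745 to 7472 under MAPKi against 19518 to 20718 under DMSO, without overlap, and 22688 to 41123 in the Gln-depleted against 16307 to 25847 in the CTRL libraries, with overlap. Of the lists for other cell types, 1 of 4 keratinocyte, 2 of 3 fibroblast, 1 of 3 endothelial and 1 of 4 leukocyte markers averaged 10 or more normalized reads in either experiment. The keratinocyte sum was 1999 to 2017 under MAPKi against 1307 to 1384 under DMSO and 1850 to 3809 in the Gln-depleted against 1259 to 1751 in the CTRL libraries, the endothelial sum 284 to 320.0 under MAPKi against 152 to 177, and the fibroblast sum 342 to 413 in the Gln-depleted against 547 to 872 in the CTRL libraries. The defining markers KRT5, KRT1 and CD3E were at 0 reads in both experiments and PECAM1 and CDH5 in the Gln depletion experiment, and the leukocyte sum (13661 to 14315 under MAPKi against 1951 to 2274) came from 1 gene, CD68, which is not restricted to leukocytes. The part of these markers in the results was not tested.

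Promoters of 3 members are shown because they hold a match to a motif searched for in the windows of the members. The window runs from 250 bases before to 50 bases after the start of the transcript (RefSeq, GRCh38.p14), and 7 of the 9 members had such a window, with 9 windows in all. In all, 4 motifs were searched on both strands: TGATGNAA, the core of the amino acid response element bound by C/EBP-ATF dimers, CACGTG, the E-box, TGACGTCA, the cAMP response element, and TGTTTAC, the forkhead core. The promoter of ASNS lies at chr7:97872359-97872658, that of GOT1 at chr10:99430575-99430874 and that of ALDH18A1 at chr10:95656662-95656961, each on the minus strand and written 5′ to 3′ with the motif in capitals.
ASNS: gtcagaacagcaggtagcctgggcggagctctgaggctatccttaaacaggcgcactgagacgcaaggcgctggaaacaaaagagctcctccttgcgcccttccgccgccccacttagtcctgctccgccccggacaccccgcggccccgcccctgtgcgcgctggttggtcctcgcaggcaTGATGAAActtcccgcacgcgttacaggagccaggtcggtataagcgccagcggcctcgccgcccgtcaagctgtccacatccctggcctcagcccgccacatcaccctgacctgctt
GOT1: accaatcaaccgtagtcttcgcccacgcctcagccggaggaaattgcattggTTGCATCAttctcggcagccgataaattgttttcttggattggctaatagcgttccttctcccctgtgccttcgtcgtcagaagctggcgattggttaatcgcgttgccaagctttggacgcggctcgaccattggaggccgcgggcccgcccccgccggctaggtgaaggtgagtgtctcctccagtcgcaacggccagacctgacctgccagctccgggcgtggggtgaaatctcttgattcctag
ALDH18A1: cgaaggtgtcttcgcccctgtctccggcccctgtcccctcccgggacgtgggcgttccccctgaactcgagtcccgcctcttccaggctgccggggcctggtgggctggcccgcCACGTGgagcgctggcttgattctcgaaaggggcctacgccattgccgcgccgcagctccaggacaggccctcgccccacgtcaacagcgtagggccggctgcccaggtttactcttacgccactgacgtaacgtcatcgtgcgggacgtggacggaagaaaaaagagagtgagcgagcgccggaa

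In ASNS the capitals mark TGATGAAA at -68 to -61 from the start site, and in GOT1 they mark TTGCATCA, the same motif on the other strand, at -198 to -191. In ALDH18A1 they mark the E-box CACGTG at -136 to -131. TGATGNAA was found in 3.62% of the 35116 promoters of all genes and CACGTG in 7.26%, and a match describes letters and not a bound site. TGACGTCA (1.85% of promoters) and TGTTTAC (3.42%) matched none of the 9 windows. The windows of GLS2, GLUL, GLUD1 and GOT2 held none of the 4 motifs.

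The levels of the 9 mRNAs in untreated cells spanned a wide range. Levels are given in RPM per kb of exon, that is reads scaled to the normalized library total and divided by exon length. Exon length counts all annotated exons of a gene, from 2424 bases for GOT1 to 14283 for GLUD1. The order of the genes thus depends on the annotation. By mean normalized counts alone, GLUD1 (4173) stood above ALDH18A1 (3309), PYCR1 (2749) and GOT1 (2142) under DMSO. In RPM per kb, GOT2 stood first in the DMSO libraries at 56.7 ± 0.853 (SD, n = 3). PYCR1 (26.8 ± 0.519), GOT1 (24.9 ± 1.47) and ALDH18A1 (24.8 ± 0.490) followed, and neighbours among these 3 overlapped between libraries. GLUD1 (8.23 ± 0.202), GLUL (6.86 ± 0.462) and GPT2 (5.26 ± 0.189) came next without overlap, and ASNS was low at 0.153 ± 0.0168. The level of ASNS is uncertain, as 49.3% of its exon bases in the GENCODE annotation are shared with a read-through gene. GLS2 stood last, with 12 reads over all 12 libraries. The CTRL libraries gave the same first place to GOT2 (60.1 ± 14.5) and the same last places to ASNS (0.104 ± 0.0382) and GLS2, with overlaps among PYCR1, ALDH18A1 and GOT1 and among GLUD1, GPT2 and GLUL.

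The order changed with the treatments. Under MAPKi, GOT2 (60.9 ± 1.24) and GOT1 (52.1 ± 1.26) stood first, GLUL came next at 15.8 ± 0.787 overlapping with ALDH18A1 (12.7 ± 2.12), and PYCR1 dropped to 6.47 ± 0.139, behind GLUD1. In the Gln-depleted libraries, PYCR1 stood first at 137 ± 4.48, followed by GOT1 at 80.3 ± 27.1, and then by GOT2 (36.9 ± 9.96) and GPT2 (31.6 ± 1.60), which overlapped. ASNS stayed next to last in all 4 groups, at 0.0344 ± 0.00974 under MAPKi and 0.743 ± 0.0471 in the Gln-depleted libraries. Its rank carries the same limit of shared exon bases.

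The first comparison asked how inhibition of the MAPK pathway affected the 9 mRNAs. Of the 8 members that averaged at least 10 normalized reads, 2 rose (GLUL and GOT1), 5 fell (PYCR1, ASNS, GPT2, ALDH18A1 and GLUD1) and GOT2 did not pass the test against no change (edgeR quasi-likelihood, Benjamini-Hochberg adjusted p of at most 0.05). Changes of this kind were common in the MAPKi experiment, where 39.1% of the 12599 genes tested rose and 38.9% fell, 78% in all. In the stricter test against a 1.5-fold change, GLUL and GOT1 were upregulated and PYCR1, ASNS, GPT2 and ALDH18A1 downregulated, against 17.1% upregulated and 18.4% downregulated (35.5% together) over all genes tested. With all 12 libraries in the fit ALDH18A1 was no longer past the 1.5-fold limit (-0.97, edgeR adjusted p = 0.17 against that limit), which left 3 downregulated. The MAPKi and DMSO libraries did not overlap for 8 of the 8 members tested, as for 80.9% of all genes tested. The median log2 fold change of the members was -0.60, against 0.01 over all genes tested. In bulk RNA, fewer cells with an mRNA and less of it per cell cannot be told apart.

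GLS2, the liver-type glutaminase, was not tested. Its reads were 2, 0 and 1 in the MAPKi, 0, 0 and 1 in the DMSO, 4, 2 and 1 in the CTRL and 0, 1 and 0 in the Gln-depleted libraries. GLS2 lies on chromosome 12, from 56470944 to 56488414 on the minus strand. In the GENCODE annotation 82.8% of its exon bases are shared with other genes, 77.1% with SPRYD4 on the opposite strand. Reads there cannot be told apart unless the counting used strand, which is not given in the sources used here.

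GLUL, glutamine synthetase, makes Gln from Glu and ammonia, and lies on chromosome 1 from 182378098 to 182392206. Its normalized counts were 6727, 6930 and 7385 under MAPKi and 2956, 2986 and 3296 under DMSO. Every MAPKi library stood above every DMSO library, and the gap was far wider than the spread within either group. GLUL rose by a log2 fold change of 1.19 (SE 0.06, 95% confidence interval 1.06 to 1.32), or 2.28-fold higher (edgeR adjusted p = 8.3e-08). After Gln depletion its counts were 4036, 2536 and 2196, against 3612, 2466 and 1975 in the CTRL libraries. The groups overlapped, replicate 1 was the highest library in both, and the Gln-depleted library was slightly the higher in 3 of 3 same-numbered pairs. Its log2 fold change of 0.12 (interval -0.58 to 0.82) did not pass the test (edgeR adjusted p = 0.81).

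GLUD1, the mitochondrial glutamate dehydrogenase, converts Glu to 2-oxoglutarate and ammonia, and lies on chromosome 10 from 87050202 to 87094843. The normalized counts were 3538, 3659 and 3601 under MAPKi and 4089, 4171 and 4260 under DMSO, without overlap. The fall was small, -0.21 on the log2 scale (SE 0.04, edgeR adjusted p = 8.4e-04), under the limit of 1.5-fold, and with all 12 libraries in the fit it did not pass the test (-0.20, edgeR adjusted p = 0.24, the highest over its alternatives, the lowest being 4.6e-05). The Gln-depleted libraries gave 5304, 4627 and 4219 and the CTRL libraries 4928, 3784 and 3709. These overlapped, and the log2 fold change of 0.19 (interval -0.27 to 0.64) did not pass (edgeR adjusted p = 0.54). The paralog GLUD2 had at most 3 reads in any library and was not tested. A further row of that symbol, GLUD2_1, had at most 5 reads in any library.

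GOT1 and GOT2 are the cytosolic and mitochondrial aspartate aminotransferases, which interconvert Asp and Glu with their keto acids and carry the malate-aspartate shuttle. GOT1 lies on chromosome 10 from 99396870 to 99430624, and GOT2 on chromosome 16 from 58707131 to 58734342. GOT1 had normalized counts of 4361, 4492 and 4495 under MAPKi and of 2091, 2065 and 2268 under DMSO. The MAPKi libraries lay close together, all above the DMSO ones, and the log2 fold change was 1.05 (SE 0.05, interval 0.95 to 1.16, edgeR adjusted p = 5.0e-08). GOT1 was the only tested member that rose in both experiments. Its counts were 9427, 7114 and 4682 in the Gln-depleted libraries and 2055, 1503 and 1204 in the CTRL libraries. The Gln-depleted libraries differed widely among themselves but stood above every CTRL library, with a log2 fold change of 2.16 (SE 0.31, interval 1.44 to 2.87) or 4.46-fold (edgeR adjusted p = 0.0045). Between same-numbered libraries the log2 ratio ranged from 1.96 to 2.24, so the ratio was steadier than the level.

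GOT2 hardly moved under MAPKi, with counts of 7941, 8137 and 8060 against 7423, 7604 and 7616. The groups did not overlap, but the difference was only 1.07-fold and did not pass the test (log2 fold change 0.09, interval 0.00 to 0.18, edgeR adjusted p = 0.060). It passed without DMSO replicate 3 (edgeR adjusted p = 0.045) and with DESeq2 (adjusted p = 0.033), at a similar size, and its adjusted p reached 0.68 over the alternatives. After Gln depletion the counts were 6577, 4320 and 4206, against 10076, 7150 and 6707 in CTRL. The highest Gln-depleted library, replicate 1, lay just under the lowest CTRL library, and replicate 1 was the highest in both groups. The log2 fold change of -0.66 (interval -1.25 to -0.08) did not pass the test without a replicate block (edgeR adjusted p = 0.11). It passed with the replicate number as a block (-0.67, edgeR adjusted p = 0.0022) and within experimental batch 2 (-0.70, edgeR adjusted p = 0.012). Without Gln-depleted replicate 1 it also passed (-0.90, edgeR adjusted p = 0.036), and over its alternatives the adjusted p ran from 0.0022 to 0.30.

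GPT2, the mitochondrial alanine aminotransferase, makes alanine and 2-oxoglutarate from pyruvate and Glu, and lies on chromosome 16 from 46884362 to 46931289. It fell under MAPKi and rose after Gln depletion. Its counts were 581, 550 and 516 under MAPKi and 1207, 1151 and 1207 under DMSO, without overlap and with little spread. GPT2 fell with a log2 fold change of -1.11 (SE 0.06, interval -1.25 to -0.98, edgeR adjusted p = 1.4e-07). The Gln-depleted libraries gave 7712, 7144 and 7092 against 1719, 1437 and 1360 in CTRL. Here too the groups stood far apart, by 4.86-fold (log2 fold change 2.28, SE 0.19, edgeR adjusted p = 9.0e-04). The cytosolic paralog GPT had 3 to 11 reads per library and was not tested.

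ASNS, asparagine synthetase, makes Asn from Asp with the amide of Gln, and lies on chromosome 7 from 97851677 to 97872542. It had few reads, so each is given as counted. There were 4, 6 and 8 reads in the MAPKi and 27, 28 and 24 in the DMSO libraries, and 121, 131 and 119 in the Gln-depleted and 21, 24 and 12 in the CTRL libraries. Both comparisons were free of overlap, with MAPKi under DMSO and Gln-depleted over CTRL. The log2 fold change was -2.14 under MAPKi (SE 0.33, interval -2.90 to -1.38, edgeR adjusted p = 2.6e-04) and 2.87 after Gln depletion (SE 0.38, interval 1.99 to 3.74, edgeR adjusted p = 0.0033). In the GENCODE annotation, 49.3% of the exon bases of ASNS are shared with a long noncoding read-through gene on the same strand. Reads on shared bases cannot be given to either gene, so the level of ASNS is uncertain. The study names NCBI's annotation, in which the overlap was not measured, so 49.3% need not be the share lost in these counts. The counted read-through gene CZ1P-ASNS had at most 4 reads in a library. With these added to ASNS the log2 fold changes were -1.89 and 2.86. This sum cannot restore reads on the shared bases, so it does not test the effect of the overlap.

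ALDH18A1, the enzyme that starts proline and ornithine synthesis from Glu, lies on chromosome 10 from 95605941 to 95656711. It had counts of 2011, 1456 and 1563 under MAPKi and of 3233, 3408 and 3288 under DMSO. Replicate 1 was the highest MAPKi library and still lay well below every DMSO library. ALDH18A1 fell with a log2 fold change of -0.98 (SE 0.10, interval -1.21 to -0.75, edgeR adjusted p = 1.5e-05). In the Gln depletion experiment the counts were 3779, 1642 and 1398 in the Gln-depleted and 4731, 2890 and 2584 in the CTRL libraries. Replicate 1 was far above the others in both groups, so that the groups overlapped, while the Gln-depleted library was the lower in 3 of 3 same-numbered pairs. The log2 fold change of -0.58 (interval -1.51 to 0.34) did not pass the test (edgeR adjusted p = 0.34). It passed with the replicate number as a block (-0.67, edgeR adjusted p = 0.0073), within experimental batch 2 (-0.85, edgeR adjusted p = 0.0090) and without Gln-depleted replicate 1 (-1.16, edgeR adjusted p = 0.032), in a range from 0.0073 to 0.69 over its alternatives.

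PYCR1, the mitochondrial pyrroline-5-carboxylate reductase that completes proline synthesis, lies on chromosome 17 from 81932384 to 81942412. Its counts were 678, 647 and 647 under MAPKi and 2788, 2786 and 2673 under DMSO. The groups were tight and far apart, and PYCR1 had the smallest adjusted p of the members under MAPKi (log2 fold change -2.06, SE 0.04, interval -2.16 to -1.96, 4.18-fold lower, edgeR adjusted p = 1.1e-09). After Gln depletion it moved by a like amount in the opposite direction, with 14675, 13919 and 14549 against 3782, 3137 and 2975. PYCR1 rose with a log2 fold change of 2.12 (SE 0.19, interval 1.70 to 2.55, edgeR adjusted p = 0.0010). In the GENCODE annotation other genes share 29.7% of its exon bases, 15.6% on the opposite strand and 14.1% on the same strand.

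**Figure D1:**
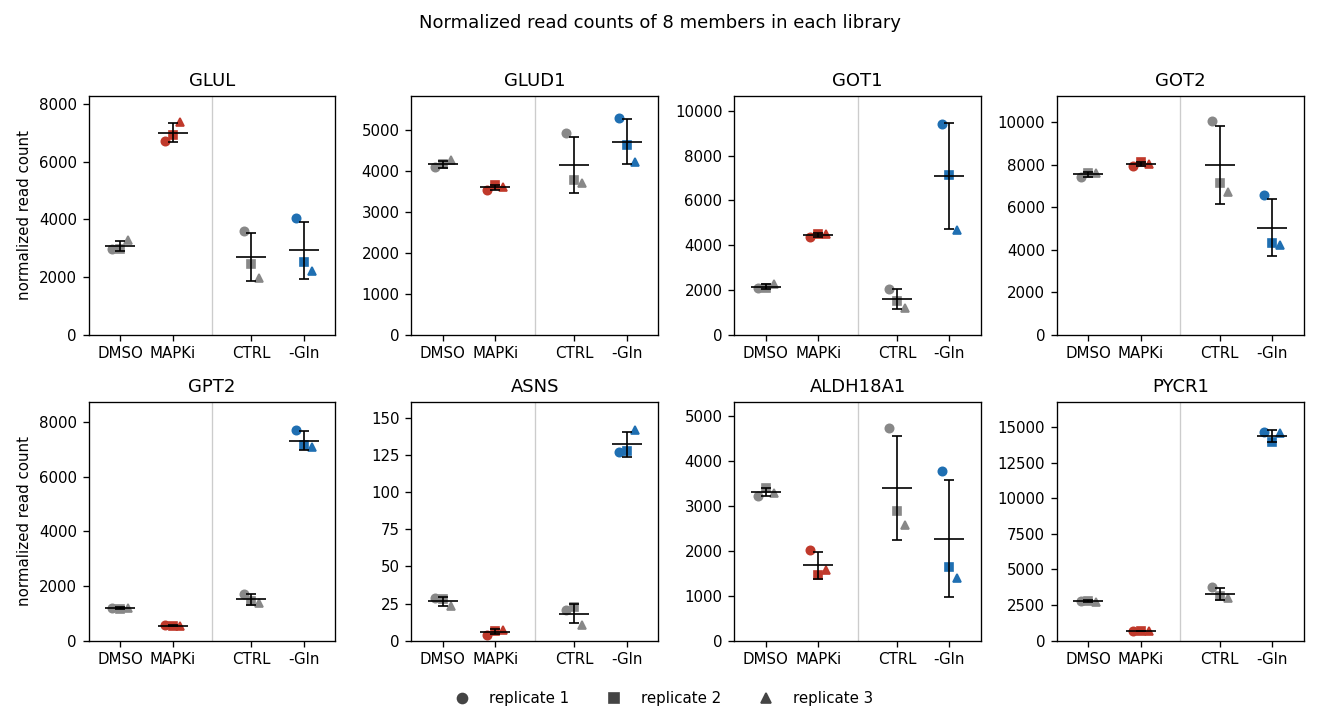
Normalized read counts (linear axis from 0) of the 8 members tested, in the DMSO, MAPKi, CTRL and Gln-depleted (-Gln) libraries, normalized within each experiment. Symbols are replicates and black bars the mean ± SD (n = 3), and GPT2, ASNS and PYCR1 lie below DMSO under MAPKi and above CTRL after Gln depletion.

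The second comparison asked how the lack of Gln in the medium affected the same mRNAs. Of the 8 members tested, 4 rose (ASNS, GPT2, GOT1 and PYCR1) and 4 did not pass the test (GLUL, GLUD1, GOT2 and ALDH18A1). With edgeR 0 members fell, and 0 with DESeq2, while 1 member, GOT2, was lower at an unadjusted p under 0.05. Over all 12518 genes tested, 9.74% rose and 7.94% fell, 17.7% in all. All 4 that rose were upregulated by the limit of 1.5-fold, against 3.5% of all genes tested, with 1.92% downregulated (5.42% together). GOT1 lost that call without CTRL replicate 2 (2.12, edgeR adjusted p = 0.056 against the limit) or CTRL replicate 3 (1.99, edgeR adjusted p = 0.053), and at an adjusted p limit of 0.01, which left 3 upregulated. The groups did not overlap for 5 of the 8 members, against 39.7% of all genes tested. The median log2 fold change was 1.16 over the members and 0.02 over all genes tested. With the replicate number as a block, GOT2 and ALDH18A1 fell and the same 4 rose, while 25.6% of all genes tested rose and 22.9% fell. Without the block, their unadjusted p was 0.030 for GOT2 and 0.19 for ALDH18A1.

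The effects of MAPKi and of Gln depletion were then compared directly, as the difference of the log2 fold changes in a fit of all 12 libraries. The 2 experiments had different controls and sequencing batches. The contrast cancels the batch only if it acted alike on both groups of an experiment, which was not tested. In this fit 40.3% of the 12633 genes tested differed. Of the 8 members tested, 6 differed. The difference, MAPKi minus Gln depletion, was -4.95 for ASNS (SE 0.46, edgeR adjusted p = 1.1e-05), -4.14 for PYCR1 (SE 0.17, edgeR adjusted p = 2.3e-08) and -3.34 for GPT2 (SE 0.17, edgeR adjusted p = 1.0e-07). These 3 genes moved in opposite directions in the 2 experiments, and each differed in 12 of 12 fits that left out 1 library. The log2 fold change of GLUL, which had not passed the test after Gln depletion, was higher under MAPKi (1.12, SE 0.34, edgeR adjusted p = 0.022). That of GOT1 was higher after Gln depletion (-1.05, SE 0.34, edgeR adjusted p = 0.026). GOT2 differed by 0.81 (SE 0.27, edgeR adjusted p = 0.033). With the replicate number as a block, all 3 passed at about the same size (1.12, -1.03 and 0.81, with edgeR adjusted p of 2.8e-05, 9.3e-05 and 9.5e-05). Without the block and with 1 library left out, some of these calls were lost. That of GLUL was lost without DMSO replicate 2 (1.09) or Gln-depleted replicate 2 (1.01) or 3 (0.93), with an edgeR adjusted p of up to 0.056. That of GOT1 was lost without any 1 of the MAPKi libraries (-1.05 to -1.06), DMSO replicate 3 or CTRL replicate 2 or 3 (-1.01 to -0.88), with an edgeR adjusted p of up to 0.059. GOT2 kept its call in 3 of the 12 fits, those without CTRL replicate 2, CTRL replicate 3 or Gln-depleted replicate 1. In the others its difference was 0.79 to 0.82 without a MAPKi or DMSO library and 0.58 to 0.70 without CTRL replicate 1 or Gln-depleted replicate 2 or 3, with an edgeR adjusted p of up to 0.080. GLUD1 (-0.35, interval -0.77 to 0.07, edgeR adjusted p = 0.17) and ALDH18A1 (-0.35, interval -1.39 to 0.70, edgeR adjusted p = 0.59) did not pass. GLUD1 passed with the replicate block (edgeR adjusted p = 0.011) and without CTRL replicate 1 (edgeR adjusted p = 0.016).

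**Figure D2:**
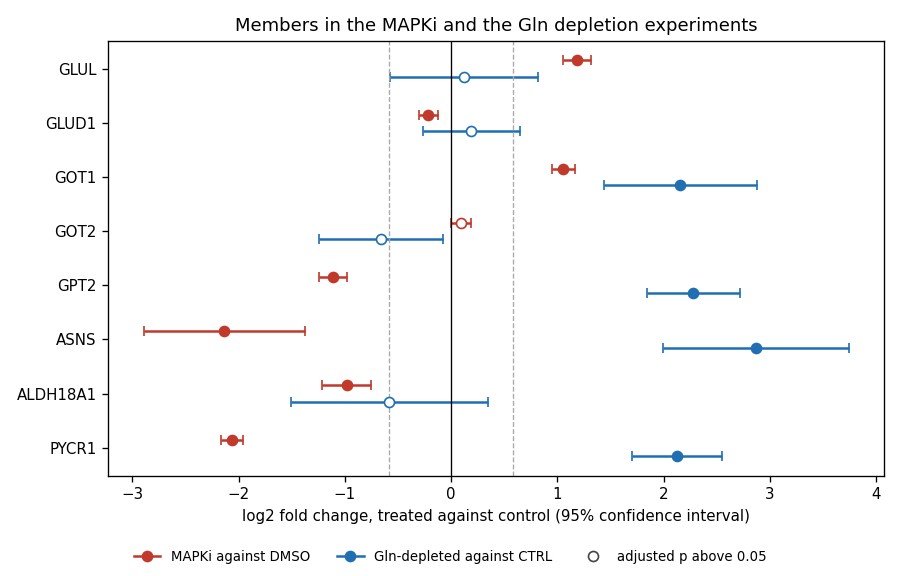
Log2 fold changes (x axis) of the 8 members tested, in red for MAPKi against DMSO and in blue for Gln-depleted against CTRL, with 95% confidence intervals, where open points did not pass the test and dashed lines mark a 1.5-fold change. ASNS, PYCR1 and GPT2 lie on opposite sides of 0, from -2.14 to -1.11 under MAPKi and from 2.12 to 2.87 after Gln depletion, while GOT1 lies right of 0 in both.

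The cytosolic and mitochondrial aspartate aminotransferases were next set against each other, as the share of reads within the pair, which does not depend on the scaling between libraries. Shares carry a 95% Wilson interval, which covers counting error only. GOT1 took 35.5%, 35.6% and 35.8% of the GOT1 and GOT2 reads under MAPKi and 22.0%, 21.4% and 23.0% under DMSO. It took 58.9%, 62.2% and 52.7% in the Gln-depleted and 16.9%, 17.4% and 15.2% in the CTRL libraries. The cytosolic form thus took a larger share in every treated library than in any control of its experiment, by 13.5 and 41.4 percentage points. The lowest share in the Gln-depleted libraries, that of replicate 3, had an interval of 51.5% to 53.8%. Both comparisons of 3 against 3 libraries had an exact permutation p of 0.1 (two-sided), the smallest that this design can give.

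**Figure D3:**
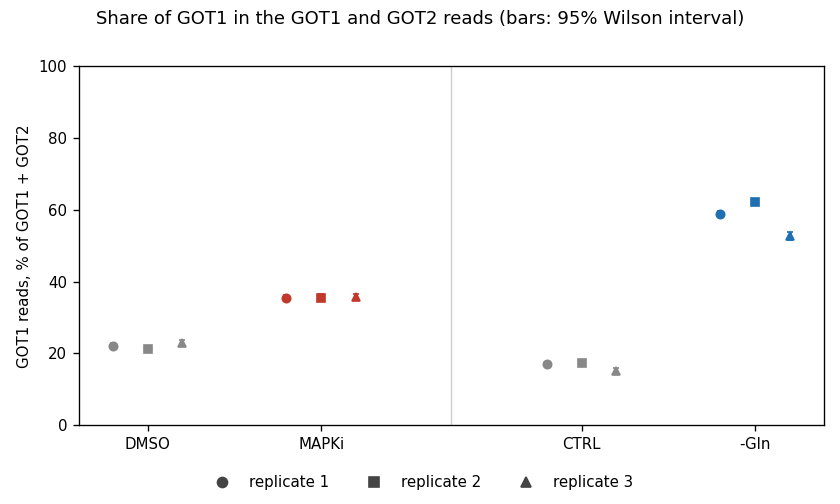
Share of GOT1 in the reads of GOT1 and GOT2 (y axis, percent, 0 to 100) in each of the 12 libraries, where symbols are replicates and bars 95% Wilson intervals, mostly smaller than the symbols. The share lies between 35.5% and 35.8% under MAPKi and between 52.7% and 62.2% in the Gln-depleted libraries, above every control library of the same experiment.

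The other enzymes of these pathways were described from lists of 49 genes, of which 41 were tested in each experiment. Under MAPKi, 14 of the 41 rose and 24 fell, with 5 upregulated and 12 downregulated and a median log2 fold change of -0.33. Over all genes tested, 39.1% rose and 38.9% fell, with 17.1% upregulated and 18.4% downregulated. The counts of each list below are to be read beside the shares over all genes given here. With all 12 libraries in the fit, 5 rose. After Gln depletion, 9 of 41 rose and 5 fell, with 4 upregulated and a median of -0.15. Over all genes tested, 9.74% rose, 7.94% fell and 3.5% were upregulated. The counts after Gln depletion were lower when any of several libraries was left out. Whether this came from those libraries or from a smaller group was not tested. The rises numbered 5 without CTRL replicate 2 or 3 and 4 without Gln-depleted replicate 2, while the falls numbered 0 without CTRL replicate 2, CTRL replicate 3 or Gln-depleted replicate 2 and 1 without CTRL replicate 1 or Gln-depleted replicate 3. With the replicate number as a block, 10 rose and 14 fell, while 25.6% of all genes tested rose and 22.9% fell. The 10 include SLC25A12, whose rise rested on Gln-depleted replicate 1.

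The glutamine amidotransferases, which move the amide nitrogen of Gln to other molecules, were mostly lower under MAPKi. Of the 9, 6 fell and all 6 were downregulated, led by CTPS1 (cytidine triphosphate synthesis, -1.96), CAD (the start of pyrimidine synthesis, -1.89) and PPAT (the start of purine synthesis, -1.56), while GFPT2 (0.33) and NADSYN1 (0.29) rose a little. After Gln depletion 3 of the 9 changed. GFPT1, the rate-limiting enzyme of hexosamine synthesis, rose by 1.84, while GFPT2, its paralog, fell by 1.40 and CTPS1 fell by 0.86. With the replicate number as a block CAD also fell (-0.55, edgeR adjusted p = 0.0048), so that 4 of the 9 changed.

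Among the other Glu enzymes and aminotransferases, 3 of 14 tested rose and 10 fell under MAPKi. ABAT, which breaks down GABA, rose by 1.65, ALDH5A1, the next enzyme in that path, by 0.71, and GCLC, which starts glutathione synthesis, by 0.47. BCAT1, the cytosolic branched-chain aminotransferase, fell by 3.70, from a mean of 1102 normalized counts under DMSO to 85.0 under MAPKi, and AADAT fell by 1.59. After Gln depletion 4 of 14 rose and KYAT1 fell (-1.10), and with the block 5 of 14 fell. Among those that rose were BCAT1 (2.24) and PSAT1 of serine synthesis, which is also in the amino acid response list (2.00). BCAT1, like GPT2, lay on opposite sides of 0 in the 2 experiments, with a difference of -5.89 (edgeR adjusted p = 3.1e-06).

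In the Asp and malate-aspartate shuttle list, 8 of 13 tested rose and 4 fell under MAPKi, the only pathway list with a median above 0 there (0.30). ADSS1 (1.49) and SLC25A11, the 2-oxoglutarate carrier of the shuttle (0.91), rose along with GOT1, while ADSS2 (-1.01) and ADSL (-0.92) of purine synthesis were among those that fell. ASPA, which splits N-acetylaspartate, had 23, 28 and 27 reads under MAPKi and 0 in every DMSO library. After Gln depletion 1 of 13 rose, NARS1, the Asn-tRNA synthetase (0.86), and 2 fell, MDH1, the cytosolic malate dehydrogenase of the shuttle (-0.97), and SLC25A13, its Asp-Glu carrier (-0.83). SLC25A11, which rose with GOT1 under MAPKi, had a log2 fold change of -0.60 after Gln depletion that did not pass the test (edgeR adjusted p = 0.092), and fell with the replicate number as a block (-0.60, edgeR adjusted p = 0.012). With the block 5 of the 13 fell and 2 rose, NARS1 and SLC25A12. The rise of SLC25A12 rested on Gln-depleted replicate 1.

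In the proline and ornithine list, 4 of 5 tested fell under MAPKi. Among them were ODC1, which starts polyamine synthesis (-1.04), EPRS1, the Glu- and Pro-tRNA synthetase (-0.49), and ARG2 (-0.33), while ALDH4A1 of proline breakdown rose by 0.48. After Gln depletion 3 of the 5 rose, among them EPRS1 (1.54) and ODC1 (0.73). PRODH, which starts proline breakdown, had 0 to 10 reads per library and was not tested.

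The amino acid response list holds targets and partners of ATF4 that are not members. After Gln depletion 8 of its 9 tested genes rose and all 8 were upregulated, led by the cystine carrier SLC7A11 (3.51), CHAC1 (3.34) and TRIB3 (3.19), and ATF4 itself rose by 1.92. Under MAPKi 6 of 9 fell and 3 rose. CHAC1 (-2.93), SLC7A11 (-2.14), PHGDH (-1.17) and ATF4 (-0.74) fell, but ATF3 (2.36), ATF5 (0.92) and DDIT3 (0.30) rose. ASNS, GPT2 and PYCR1 moved in the direction of CHAC1 and SLC7A11 in both experiments, GOT1 in that of ATF3.

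**Figure D4:**
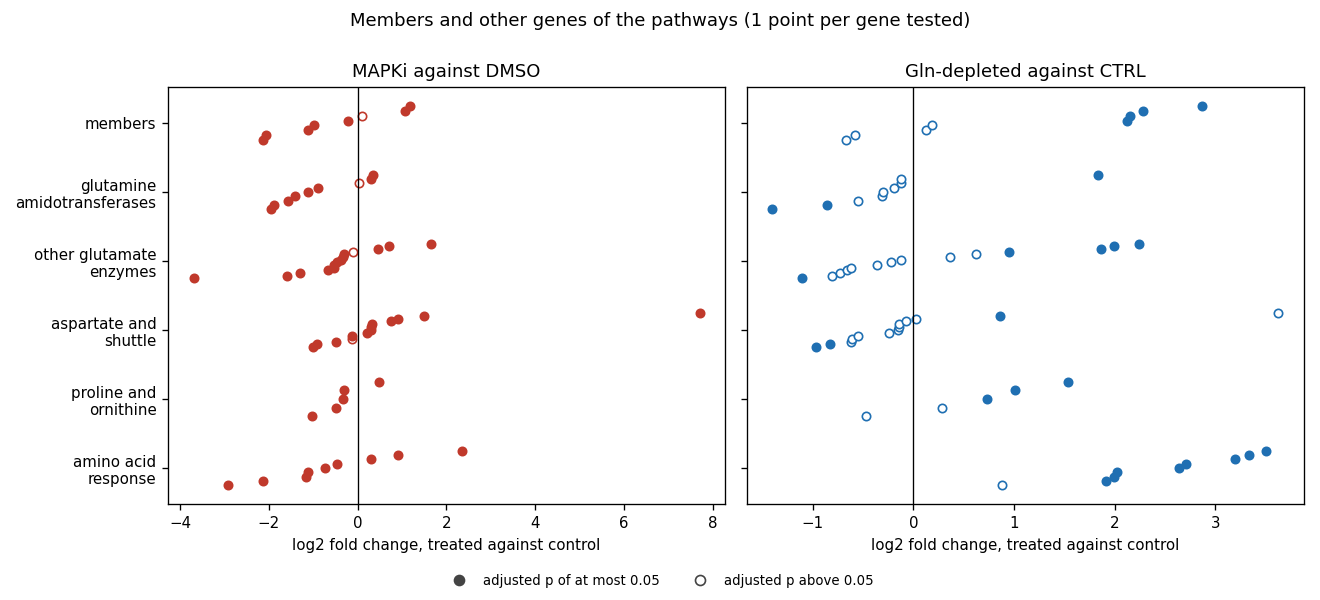
Log2 fold changes (x axis, a scale of its own in each panel) of the members and of 5 lists of related genes under MAPKi (left) and after Gln depletion (right), with 1 point per gene tested and open points for those that did not pass. The amino acid response genes lie right of 0 after Gln depletion and on both sides under MAPKi. The far right point on the left is ASPA, whose DMSO libraries held 0 reads, and on the right SLC25A12, which had 150 reads in Gln-depleted replicate 1 and at most 7 in each other library of that experiment.

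Across the 12 libraries, with the mean of each experiment taken off, the log2 normalized counts of GPT2, ASNS and PYCR1 followed each other, with Pearson's r of 0.96 between GPT2 and ASNS, 0.97 between ASNS and PYCR1 and 0.95 between GPT2 and PYCR1. These r are descriptions over 12 libraries that share 4 groups. GOT1 followed these genes less closely (r = 0.59 with GPT2, 0.45 with ASNS and 0.32 with PYCR1). Its r was 0.57 with GLUL and -0.44 with GOT2. GLUD1 had r of 0.60 with GPT2, 0.60 with ASNS and 0.63 with PYCR1, and 0.04 with GLUL. Among the other protein-coding genes with 100 or more normalized reads on average, the most similar to GPT2 were PSPH, of serine synthesis (r = 0.995), and TMEM39A (0.990). Those most similar to PYCR1 were TBL1X and GRB10 (both 0.996), and those most similar to ASNS were CHAC1 (0.983) and HOXB9 (0.981). GOT1 was closest to MICAL2 and WIPF2 (both 0.989), GOT2 to ACO1 (0.993) and HDHD3 (0.991), and ALDH18A1 to IL17RD (0.988) and SLX4 (0.986). GLUL was closest to MLYCD and EXOC3 (both 0.983), and GLUD1 to HACL1 (0.985) and XPNPEP3 (0.974).

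The study addressed the Glu and Asp codons of regulated mRNAs, so the coding sequences of the members were read as well (MANE Select transcripts, compared with 18467 coding sequences). The members did not stand together. Glu made up 7.31% of the codons of ASNS and 7.27% of those of GPT2, but 4.70% of those of PYCR1, against a median of 6.63%. Asp made up 5.53% in ASNS, 5.02% in PYCR1 and 3.82% in GPT2, against a median of 4.62%. Within Glu, the GAA codon took 65.9% in ASNS, but 20.0% in PYCR1 and 15.8% in GPT2, against a median of 40%. Of the 3 mRNAs that moved in opposite directions in the 2 experiments, PYCR1 and GPT2 thus used GAA less than the median, and ASNS more. GOT1 used GAA for 26.9% of its Glu codons and GOT2 for 57.1%.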

How the data were processed

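RNA-seq was performed on 12 A375 libraries, 3 per group (MAPKi, DMSO, Gln-depleted, CTRL). Per the labels, the authors trimmed reads with fastp 0.20.1, aligned them to GRCh38.p13 with HISAT2 2.2.1 and counted them with HTSeq 0.13.5. The deposited values are raw counts of 44659 genes, and all columns were used. The labels describe RNA from a cytoplasmic lysate, the study's RNA-seq methods total RNA.

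Symbols were matched to RefSeq, and positions and coding sequences were taken from GENCODE v44 (GRCh38). The study names NCBI's annotation, so the exon bases shared in GENCODE need not be those shared in its counting. Each experiment was fitted with the quasi-likelihood method of edgeR 4.0.16 (R 4.3.3), with treatment as its single term, TMM factors from the whole table, protein-coding genes averaging 10 or more normalized reads, and Benjamini-Hochberg adjustment over all genes tested. Rose, fell and changed refer to the test against no change (adjusted p up to 0.05), while up- and downregulated refer to glmTreat against a 1.5-fold change, the limit used in the study. The difference between the experiments was a contrast over 12 libraries. DESeq2 1.42.0, which the study used, was an alternative, with other filters, scalings, a replicate block, the experimental batch, and 1 library left out. The scripts were tested on simulated counts. Figures were drawn with matplotlib 3.10.9.

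Library totals ran from 31056296 to 40071368 reads (median 35748567), so that the spread between replicates limits the precision except for genes with few reads. The labels give the groups the same replicate numbers. In the Gln depletion experiment same-numbered libraries deviated together (correlations of 0.66, 0.53 and 0.48). Replicate 1 came from another experimental batch than the others in both groups. These correlations thus cannot tell a pairing by number from a shared batch. In the MAPKi experiment same-numbered libraries did not deviate together.

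The 9 members and the lists were chosen with earlier results of these data known. Genes named beside the members are the 3 largest rises and falls of each list past the limit, the paralogs and reverse enzymes, and the 2 genes with the highest correlation with each member. Some of the genes that this rule names are not reported here. Outside this rule, GLS2's neighbour SPRYD4, CZ1P-ASNS, ASNSP1, SLC25A12, CD68 and further list genes (ATF4, SLC25A11 after Gln depletion) were named after their values were seen.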

Additional observations from a re-analysis of the deposited data

Results flagged for a closer look

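Of the members tested, 6 had effects of MAPKi and of Gln depletion that differed in the test of the difference itself over 12 libraries (edgeR). The difference, MAPKi minus Gln depletion on the log2 scale, was -4.95 for ASNS, -4.14 for PYCR1 and -3.34 for GPT2, whose 2 effects had opposite signs and lay past the limit in both experiments. It was 1.12 for GLUL, -1.05 for GOT1 and 0.81 for GOT2. With the replicate number as a block these 3 passed at 1.12, -1.03 and 0.81 (edgeR adjusted p of 2.8e-05, 9.3e-05 and 9.5e-05). Without the block their calls were lost in 3, 6 and 9 of the 12 fits that left out 1 library, with differences of 0.93 to 1.09, -1.06 to -0.88 and 0.58 to 0.82 in those fits.

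Reads outside the protein-coding genes tested were found for ASNSP1, a transcribed pseudogene of ASNS. It had 13, 20 and 9 reads in the Gln-depleted libraries, a mean of 14, and 0 reads in each of the 9 other libraries. ASNS had 121, 131 and 119 reads in the same Gln-depleted libraries, and whether the reads of ASNSP1 came from ASNS was not tested.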

How the results depend on the processing

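Over the alternatives, 93 of 97 log2 fold changes of members under MAPKi, 102 of 113 after Gln depletion and 107 of 128 differences between the experiments kept their direction and their side of the limit. Those that reversed had not passed the test: GLUL after Gln depletion was -0.06 without CTRL replicate 3 and -0.18 without Gln-depleted replicate 1 (-0.18 to 0.40 without 1 library), and the difference of ALDH18A1 was 0.23 without Gln-depleted replicate 1 (-0.69 to 0.23). At a limit of 2-fold in place of 1.5-fold, 1 member was upregulated and 2 downregulated under MAPKi. With all 12 libraries in the fit, 5 other pathway genes rose under MAPKi. After Gln depletion 0 members fell, against 1 with all 12 libraries, 2 with the replicate block, 2 with the experimental batch as a term, 2 within experimental batch 2, and 0 to 2 without 1 library. Of the other pathway genes 5 fell after Gln depletion, against 3 when genes of every type were tested, 13 with all 12 libraries, 14 with the replicate block, 14 with the batch term, 9 within batch 2 and 0 to 7 without 1 library, and 9 rose, against 4 to 7 without 1 library. The cause of these shifts was not tested. Leaving out 1 library moved the members that differed between experiments from 6 to between 4 and 6, and the replicate block to 7.

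The replicate block in the Gln depletion experiment changed the calls of GOT2 and ALDH18A1 and no other member's. It added 10 calls among the other pathway genes, including SLC25A12, whose rise rested on Gln-depleted replicate 1. In the MAPKi experiment same-numbered libraries did not deviate together (correlations of 0.04, 0.04 and -0.10). There the block moved the rises over all genes tested from 4922 to 5062 and the falls from 4900 to 4988. With it GOT2 passed the test (edgeR adjusted p = 0.040). ASNS and GLS2 are limited by their few reads, the other members by the spread between replicates.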

Other observations

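SLC25A12, the other Asp-Glu carrier of the malate-aspartate shuttle, had 150 reads in Gln-depleted replicate 1 and 5 and 4 in replicates 2 and 3, against 7, 2 and 5 in the CTRL libraries and 0 to 8 in the MAPKi and DMSO libraries. Its log2 fold change after Gln depletion, 3.63, rested on that library and did not pass the test (edgeR adjusted p = 0.10), while with the replicate number as a block it passed (2.72, edgeR adjusted p = 0.036).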
